A study of Homo sapiens with 12 samples.

Results

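Monomethylated lysine 9 of histone H3 (H3K9me1) was mapped by ChIP-seq, chromatin immunoprecipitation with sequencing, in HCT116 cells before and after methionine was removed from their medium. HCT116, an established line of human colorectal carcinoma cells, is the only cell source: all libraries of the series came from it at passage 19, with the cells grown in RPMI-1640 medium with fetal bovine serum. The 2 control libraries (0 hr, letters A and B) came from cells in that medium. The 2 restricted libraries (24 hr, letters A and B) came from cells washed and kept for 24 hr in the same medium and serum without methionine, a treatment that the labels equate with depletion of S-adenosylmethionine (SAM). These 4 libraries, of 12 in the series, were chosen by their labels alone. The other 8 were inputs and H3K9me3 libraries. No control library at 24 hr was among the samples, so the effect of restriction cannot be told apart from that of 24 hr of culture. The labels do not state whether A and B were separate cultures, so the spread between them may be technical.

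Histone methyltransferases take the methyl group from SAM, which the cell makes from methionine. Lysine 9 of histone H3 can carry 1, 2 or 3 methyl groups. The monomethyl form is the substrate from which the higher forms are built, and the product left when demethylases remove methyl groups from them. H3K9me1 is generally found in broad, gene-rich stretches of euchromatin and in transcribed genes, whereas H3K9me3 marks constitutive heterochromatin and repeats.

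Regions were compared on chromosomes 1, 2, 6, 7, 10, 12, 16 and 17 (1263 Mb, build hg19), the 8 chromosomes that all 4 lists hold. A region here is an interval in the deposited list of a library. Control A had 330926 regions on these chromosomes, control B 383762, restricted A 186609 and restricted B 394290. They covered 12.4%, 15.1%, 5.72% and 14.8% of the sequence in that order. Restricted A therefore stood apart in amount, whereas restricted B had as much as the controls. Per the file headers, the ChIP libraries held, again in that order, 30952210, 31683422, 39452512 and 35134998 reads. Pileup is the authors' scaled read coverage of a region, taken here as its mean depth and not as its number of reads. At its lowest it corresponded to a depth of 3 reads in both controls and in restricted B, and of 4 reads in restricted A. Single regions thus had a low depth, and restricted A, the sparsest list, also had the highest threshold. Values from regions with a mean depth of at least 4 reads are given beside the main results on width, spacing, contrast, domain number, edges and windows. They are called regions of at least 4 reads below. As the deposited pileup is rounded, the lowest depth of restricted A came to 3.996, so its regions at that depth were left out. The rule was thus stricter in restricted A than in the other libraries. The letter also marks the sequencing lane, per names in the file headers, so A against A and B against B are comparisons within a lane.

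Individual H3K9me1 regions were short in both conditions, and a smaller share of them was wide in the restricted libraries. The median width was 372 bp in control A and 386 bp in control B, against 324 bp in restricted A and 377 bp in restricted B. Restricted B lay between the controls and only restricted A lay below them, so the conditions overlapped (exact two-sided permutation test, p = 0.667, n = 2 against 2). The mean of the restricted medians was -28.5 bp from that of the controls, and -2 bp without restricted A. The overlap went away with regions of at least 4 reads in every library, where the medians were 385 and 389 bp against 337 and 366 bp, and with equal numbers of regions taken by highest pileup, where they were 390 and 405 bp against 324 and 378 bp. The 90th percentile of width was 957 and 1018 bp in the controls and 741 and 952 bp in the restricted libraries. Here the conditions did not overlap, with restricted B just under control A (exact permutation p = 0.33, the smallest that 2 against 2 libraries allow). The difference of -141 bp came to -35.5 bp without restricted A, and with regions of at least 4 reads the values were 1027 and 1046 bp against 797 and 933 bp.

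The difference was larger among the widest regions. Regions of at least 1 kb made up 9.0% and 10.5% of the control lists and 3.93% and 8.83% of the restricted lists. Regions of at least 2 kb made up 0.869% and 1.21% of the control lists, 0.182% in restricted A and 0.721% in restricted B. At 4 kb or more there were 57 and 89 regions in the controls, 3 in restricted A and 40 in restricted B. Both restricted libraries lay below both controls at each of these widths, by little in B and by much in A. The share of covered sequence that lay in regions of at least 1 kb was 27.0% and 30.5% in the controls, 13.4% in restricted A and 26.0% in restricted B. Within letter A the median width was 0.871 times the control's, and within letter B 0.977 times. The widest region of each library reached 6299, 6604, 5648 and 5876 bp, in the order control A, control B, restricted A, restricted B.

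**Figure D1:**
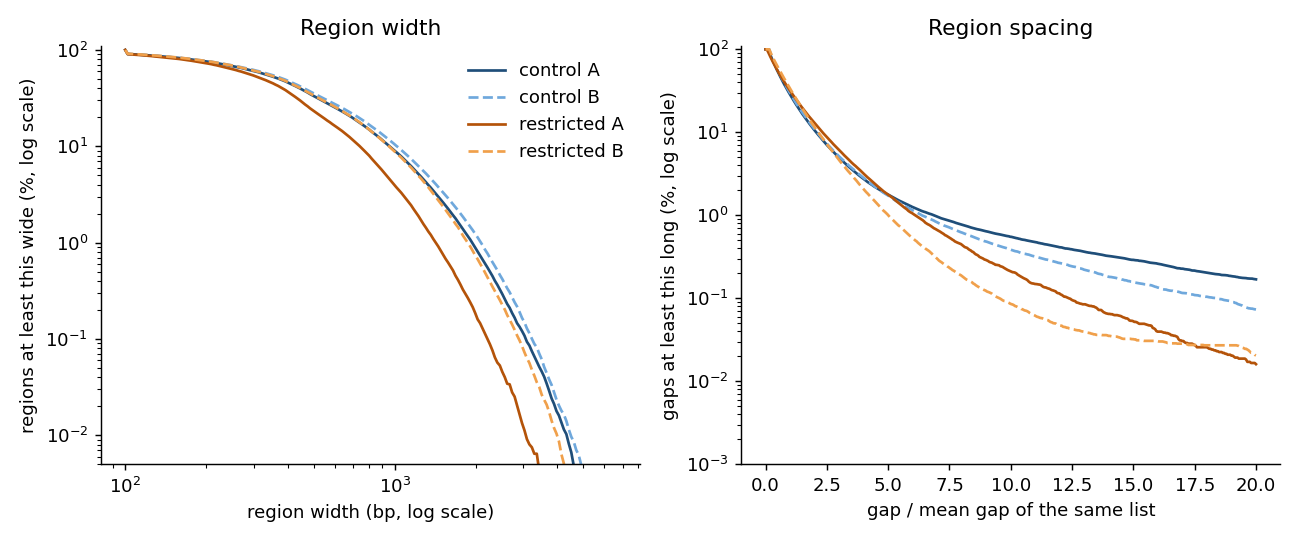
Left, the percentage of regions at least as wide as the value on the x axis (bp), and right, the percentage of gaps at least as long as a multiple of the list's own mean gap, with 1 line per library and log scales where labelled. Restricted A falls away first in width, while at 10 times the mean gap both control lines lie above both restricted lines.

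Once the number of regions was taken into account, regions were spread more evenly along the chromosomes in the restricted libraries by some measures of their gaps. The median gap between neighbouring regions was 1757 bp in control A and 1561.5 bp in control B, against 3512 bp in restricted A and 1724 bp in restricted B, leaving aside 10 stretches of at least 500 kb that were free of regions in all 4 lists. Restricted A had the widest spacing and restricted B again lay between the controls (exact permutation p = 0.667). Without restricted A the difference in median gap was 64.75 bp. With equal numbers of regions the medians were 2305 and 2513 bp in the controls and 3512 and 3071 bp in the restricted libraries, and with regions of at least 4 reads 2212 and 2576 against 4577 and 3163 bp, without overlap in either. Within letter A the median gap was 2.00 times the control's and within letter B 1.10 times. The coefficient of variation of the gaps, their SD over their mean, was 1.88 and 1.51 in the controls and 1.30 and 1.15 in the restricted libraries. Both restricted values lay below both controls (p = 0.33 by exact permutation test, the smallest possible). With regions of at least 4 reads they were 4.0 and 2.95 in the controls and 1.31 and 1.85 in the restricted libraries. The mean gap over the median gap did overlap, at 1.81 and 1.70 in the controls, 1.74 in restricted A and 1.51 in restricted B (exact permutation p = 0.667).

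The long gaps are the deserts between stretches of H3K9me1. Gaps of at least 100 kb numbered 215 in control A and 46 in control B, against 71 in restricted A and 29 in restricted B. They held 2.41%, 0.495%, 0.765% and 0.313% of the sequence. On this absolute scale restricted A lay between the controls. Measured against the mean gap of its own list, the share of sequence in gaps at least 5 times the mean was 16.2% and 12.7% in the controls, 12.2% in restricted A and 6.17% in restricted B. For gaps at least 10 times the mean the shares were 9.19% and 5.31% in the controls and 2.73% and 1.27% in the restricted libraries. Neither measure overlapped between conditions, narrowly so for restricted A in the first. With regions of at least 4 reads the first was 40.2% and 39.4% in the controls and 12.6% and 27.0% in the restricted libraries. At the short end the order was different: gaps of at least 10 kb held 25.4% and 18.1% of the sequence in the controls, 50.8% in restricted A and 11% in restricted B, so the restricted libraries lay on either side of the controls.

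Joining regions that lay close together showed how far unbroken stretches ran. With gaps of up to 10 kb bridged, 50% of the joined sequence lay in clusters of at least 227 kb in control A and 432 kb in control B, against 42.3 kb in restricted A and 342 kb in restricted B. Clusters of at least 1 Mb numbered 32, 151, 0 and 93. Restricted A had the shortest clusters, and the conditions overlapped. With gaps bridged only up to the mean gap of the same list, a cluster held 3.51 and 3.37 regions on average in the controls, and 3.16 and 2.98 in the restricted libraries. Regions were thus less bunched in both restricted libraries on a scale that adjusts for their number.

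Measured on a log scale, contrast between H3K9me1-rich and H3K9me1-poor sequence was lower in both restricted libraries at every bin size from 50 kb to 5 Mb. Density here is relative: the percentage of a bin that regions cover, over the percentage they cover of the 8 chromosomes in the same library, so a value of 1 is the library's own average. The contrast is the SD over bins of log2(relative density + 0.1). In 100 kb bins it was 1.12 in control A and 0.96 in control B, against 0.81 in restricted A and 0.57 in restricted B. For 500 kb bins it was 1.04, 0.89, 0.63 and 0.49, and for 5 Mb bins 0.67, 0.62, 0.48 and 0.42. The conditions did not overlap at 50 kb, 100 kb, 250 kb, 500 kb, 1 Mb, 2 Mb or 5 Mb (exact permutation p = 0.33 at each, the smallest possible), and the restricted value was the lower within each letter. Without the log, the coefficient of variation of density overlapped at the smaller of these sizes. At 50 kb it was 0.635 and 0.582 in the controls, 0.660 in restricted A and 0.408 in restricted B. At 100 kb it was 0.595, 0.548, 0.572 and 0.362 in the same order. From 250 kb up it did not overlap, at 0.558, 0.516, 0.489 and 0.324 for 250 kb.

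The difference depended on scale. The mean SD of the restricted libraries over that of the controls was 1.01 at 10 kb, 0.835 at 25 kb, 0.660 at 100 kb, 0.579 at 500 kb and 0.696 at 5 Mb, so it was greatest at about 500 kb to 1 Mb. At 10 kb the SD was 1.44 and 1.26 in the controls, 1.73 in restricted A and 1.0 in restricted B, with the restricted libraries on either side. The share of 10 kb bins with no region was 10.3% and 5.21% in the controls, 21.6% in restricted A and 1.87% in restricted B, which is the order of that SD. When only regions of at least 4 reads were used in every library, the SD in 100 kb bins was 1.76 and 1.75 in the controls and 0.90 and 1.35 in the restricted libraries, again without overlap.

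The lower contrast came with fewer bins beyond set cutoffs on both sides. Of the 100 kb bins, 22.6% in control A and 21.7% in control B, against 17.8% in restricted A and 8.99% in restricted B had a relative density of 0.5 or less. At 1.5 or more the shares were 24.9%, 24.4%, 19.1% and 11.1%. At these cutoffs both tails were smaller in both restricted libraries. The 90th percentile of density was 1.83 and 1.78 in the controls, 1.82 in restricted A and 1.52 in restricted B. By that measure the upper tail of restricted A lay between those of the controls.

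Neighbouring bins were also less alike in the restricted libraries. The autocorrelation of log2 density between adjacent 50 kb bins was 0.846 and 0.826 in the controls, 0.485 in restricted A and 0.609 in restricted B. Between bins 1 Mb apart it was 0.458 and 0.459 in the controls, 0.188 in restricted A and 0.302 in restricted B. At 5 Mb it was between 0.0111 and 0.0379 in all 4 libraries, and the conditions overlapped. Relative to the value between adjacent bins, the value at 1 Mb was 0.542 and 0.555 times as high in the controls, 0.389 times in restricted A and 0.496 times in restricted B. Likeness over 1 Mb was thus measurable in all 4 libraries, and weaker in the restricted ones.

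**Figure D2:**
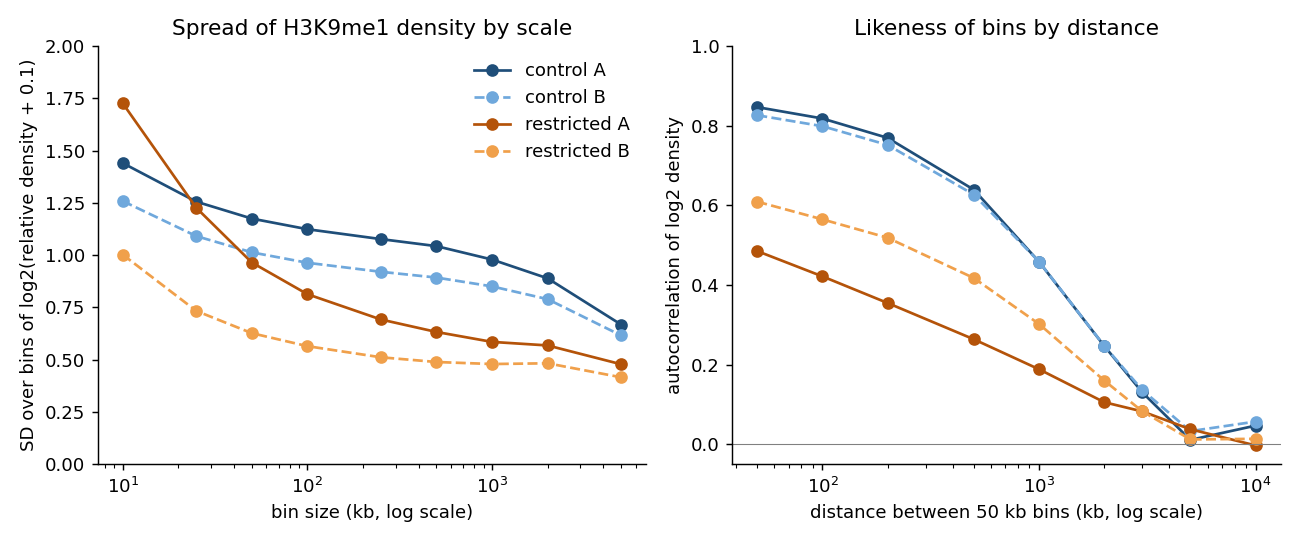
Left, the SD over bins of log2 relative density against bin size (kb, log scale), and right, the autocorrelation of 50 kb bins against their distance (kb, log scale), with 1 line per library. From 50 kb up both restricted lines lie below both control lines, and the autocorrelation of all libraries is near 0 at 5 Mb.

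The controls resembled each other far more closely than the restricted libraries did. Over 100 kb bins, Pearson's r of log2 density was 0.926 between the controls, 0.553 between the restricted libraries, 0.533 between control A and restricted A, and 0.787 between control B and restricted B. At 10 kb the values for the controls and for the restricted pair were 0.587 and 0.176, and at 1 Mb they were 0.978 and 0.769. These are descriptions across bins of the same libraries, which are not independent, and bins of 10 kb hold few regions. At 100 kb restricted A gave r of 0.533 to 0.583 with the other 3 libraries, while restricted B gave 0.769 with control A.

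Much of the domain map was common to both conditions. Domains were defined in each library on its own scale, as runs of at least 3 bins of 100 kb whose running mean over 5 bins lay in the upper tercile (rich) or lower tercile (poor) of that library's bins. A bin was in the same tercile in both controls in 85.6% of 12121 bins, in both restricted libraries in 58.4%, and across conditions in 61.9% to 63.2%. Bins in opposite terciles made up 0.0660% between the controls, 5.03% between the restricted libraries, and 2.02% to 5.64% across conditions. The restricted libraries thus differed from each other about as much as from the controls. Poor sequence was shared more often: 2816 bins (23.2%) were poor in all 4 libraries, against 1092 (9.01%) that were rich in all 4. Of 3771 bins that were poor in both controls, 0 were rich in both restricted libraries, and 277 were outside the lower tercile in both. Of 3435 bins that were rich in both controls, 52 were poor in both restricted libraries and 541 were outside the upper tercile in both.

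Domains were more numerous and the longest rich ones shorter in the restricted libraries. Rich domains numbered 310 in control A and 322 in control B, against 396 in restricted A and 396 in restricted B. Poor domains numbered 221 and 219 in the controls, 292 in restricted A and 257 in restricted B. Neither count overlapped between conditions (exact permutation p = 0.33 for each, the smallest possible). The longest rich domain spanned 10.7 and 10.6 Mb in the controls and 6.2 and 4.5 Mb in the restricted libraries, and rich domains of at least 5 Mb numbered 7, 5, 2 and 0. The median rich domain was 800 kb in both controls and in restricted B, and 700 kb in restricted A, so typical rich domains did not separate the conditions. Poor domains had medians of 1100 and 1200 kb in the controls, 700 kb in restricted A and 900 kb in restricted B. The longest poor domain was 8.4 and 8.6 Mb in the controls, and 8.0 and 8.1 Mb in the restricted libraries. With regions of at least 4 reads only, the counts overlapped, at 217 and 204 rich domains in the controls against 384 and 206 in the restricted libraries, and 213 and 228 poor domains against 266 and 220. Without the running mean the rich count no longer differed in the same direction, at 500 and 535 against 490 and 528.

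Domains set in control A were then read in the other 3 libraries, which had no part in setting them. The sequence rich in control A had a relative density of 1.59 in control B, against 1.32 in restricted A and 1.25 in restricted B. The sequence poor in control A had 0.416 in control B, against 0.631 in restricted A and 0.698 in restricted B. Rich over poor was thus 3.81 in control B, against 2.1 in restricted A and 1.79 in restricted B. Before division by the library's average, rich sequence was covered to 24.0%, 7.55% and 18.5%, and poor sequence to 6.31%, 3.60% and 10.3%, in the same order. On this unscaled measure restricted B, which had about as much covered in all as control B, was lower in rich and higher in poor sequence, whereas restricted A was lower in both. Domains set in restricted B gave 3.02 in control A, 2.99 in control B and 1.94 in restricted A, so the order was the same with domains taken from a restricted library.

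Both the number and the width of regions contributed to this contrast. Rich sequence of control A held 42.2 regions per 100 kb in control B, against 17.4 in poor sequence. Restricted A held 18.0 and 10.7, and restricted B 36.1 and 25.5. Poor sequence therefore held more regions in restricted B than in control B, although the totals of those lists were close. The mean width of regions was 570 bp in rich and 363 bp in poor sequence in control B, 420 and 338 bp in restricted A, and 512 and 406 bp in restricted B. Rich over poor was 2.43, 1.69 and 1.42 for the number of regions and 1.57, 1.24 and 1.26 for their width. On a log scale the number of regions made up 66.4% of the rich-to-poor ratio in control B, against 70.8% in restricted A and 60.1% in restricted B, so its share did not separate the conditions.

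Counted domain by domain, poor domains lay nearer the library average in the restricted libraries in nearly all cases. Both restricted libraries were denser than control B in 201 of the 221 poor domains of control A (91.0%). Over all 1 Mb bins, both restricted libraries were above control B in 46%. Poor sequence in general was like this: of the 1 Mb bins in the lowest tercile of control density, 88.8% had both restricted libraries above both controls. That tercile was set from the control values then compared, so its share is not independent of the choice of bins. Counted singly, restricted A was denser than control B in 203 of the 221 poor domains and restricted B in 216, each count including the 201. The median density of these domains was 0.524 in control B, against 0.679 in restricted A and 0.783 in restricted B. The share was 78.9% for the 38 poor domains under 500 kb, 83.6% and 96.3% in the classes up to 2 Mb, and 68 of 68 for those of at least 2 Mb.

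Rich domains did the reverse, less uniformly. Both restricted libraries were less dense than control B in 206 of the 310 rich domains (66.5%), restricted A in 223 and restricted B in 279. Over all 1 Mb bins, both restricted libraries were below control B in 28.8%. The median density was 1.55 in control B, against 1.36 in restricted A and 1.30 in restricted B. The share again differed by length, from 45.1% of 51 domains under 500 kb to 90.7% of 54 domains of at least 2 Mb. The range among rich domains was widest in restricted A, where the 10th and 90th percentiles were 0.905 and 1.73, against 1.36 and 1.74 in control B and 1.08 and 1.49 in restricted B. The share by length was not tested for a difference between length classes.

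Density stepped up at the edges of rich domains in all libraries, and by less in the restricted ones. Across the 620 edges of the rich domains of control A, density in the 300 kb inside was 1.27 times that in the 300 kb outside in control B, against 1.08 times in restricted A and 1.11 times in restricted B. At 250 kb inside the edge the mean density was 1.62 in control B, against 1.32 in restricted A and 1.34 in restricted B. At 250 kb outside it was 1.11, 1.19 and 1.12. Across an edge, the running mean of control A over 5 bins changes only through this pair of bins. The pair therefore cannot show on which side the difference lay. At 950 kb outside, the densities were 1.17, 1.09 and 1.11 in the same order. At 950 kb inside, which only the longer domains reach, they were 1.59, 1.35 and 1.24. Control B was thus the highest on both sides at that distance, by more inside. Edges set in control B (644) gave 1.29 in control A, 1.11 in restricted A and 1.11 in restricted B. Edges set in restricted B (792) gave 1.21 in control A, 1.18 in control B and 1.09 in restricted A. Edges set in restricted A (792) gave 1.08 in control A, 1.12 in control B and 1.06 in restricted B, the smallest steps of the 4 sets of edges. The mean restricted step minus that of control B, at edges of control A, was -0.169. With equal numbers of regions, taken by highest pileup, it was -0.546, and with regions of at least 4 reads -1.12.

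**Figure D3:**
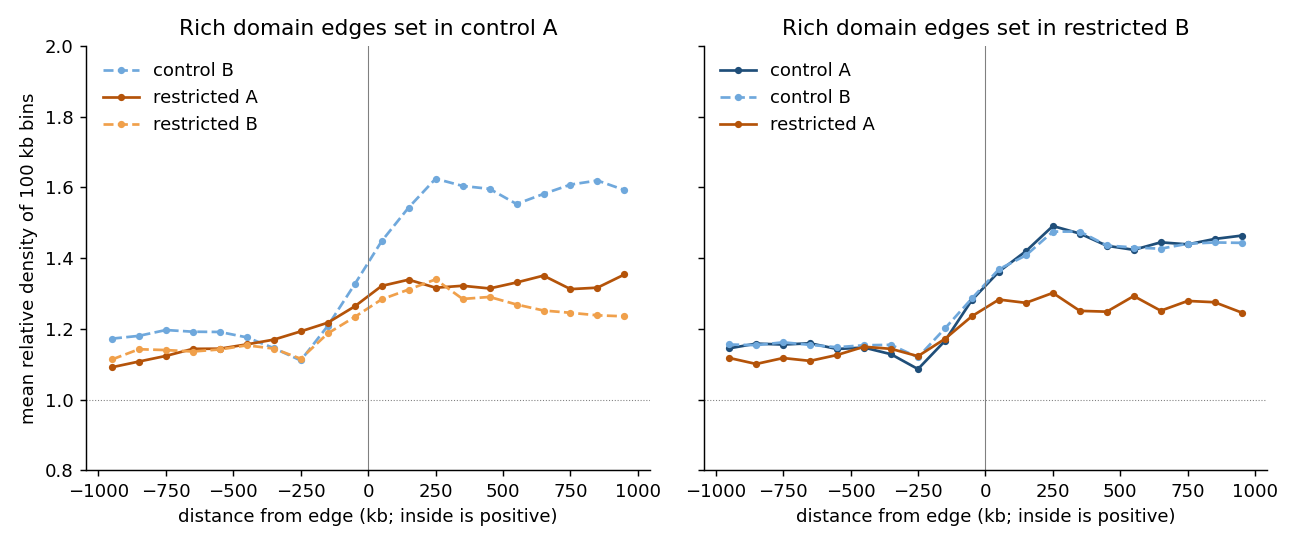
Mean relative density of 100 kb bins against distance from rich domain edges (kb, inside positive), for edges set in control A (left) and in restricted B (right), each read in the other 3 libraries. The control lines reach the highest level inside the edge in both panels, and the library that set the edges is not drawn.

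The 3 longest domains of each kind in control A show how these values varied by place. The longest rich domain, chr10:117700001-128400000 (10.7 Mb), had densities of 1.83 in control A and 1.60 in control B, against 1.21 in restricted A and 1.32 in restricted B, while 107, 96, 52 and 74 of its 107 bins were in the upper tercile of their library. It was thus lower but still partly rich in both restricted libraries. The rich domain chr17:70100001-79100000 (9 Mb) had 2.07, 1.33, 0.889 and 0.806, with 90, 36, 12 and 1 of 90 bins in the upper tercile. There the restricted libraries were under their own average, and control B was well under control A. The rich domain chr17:41700001-49600000 (7.9 Mb) had 2.02 and 1.61 in the controls, 1.59 in restricted A and 0.971 in restricted B, with 79, 75, 55 and 9 of 79 bins in the upper tercile. Restricted A was close to control B there, and only restricted B was at its average.

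The poor domains were more alike. In chr2:75900001-84300000 (8.4 Mb) density was 0.202 and 0.254 in the controls, 0.446 in restricted A and 0.545 in restricted B. It held 676, 1000, 678 and 1796 regions, so restricted A, with the fewest regions in all, had as many there as control A. In chr7:78100001-86500000 (8.4 Mb) density was 0.468, 0.490, 0.566 and 0.742, and in chr10:52700001-60000000 (7.3 Mb) it was 0.231, 0.267, 0.381 and 0.515. In all 3, both restricted libraries were denser than control B, which had no part in setting the domains. The same held for 91.0% of all poor domains of control A and for 46% of all 1 Mb bins. Even so, 80 and 79 of 84 bins in the first, 80 and 80 of 84 in the second, and 72 and 67 of 73 in the third were in the lower tercile of restricted A and restricted B. These domains were thus poor by rank in all 4 libraries, at densities nearer the average in the restricted ones.

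**Figure D4:**
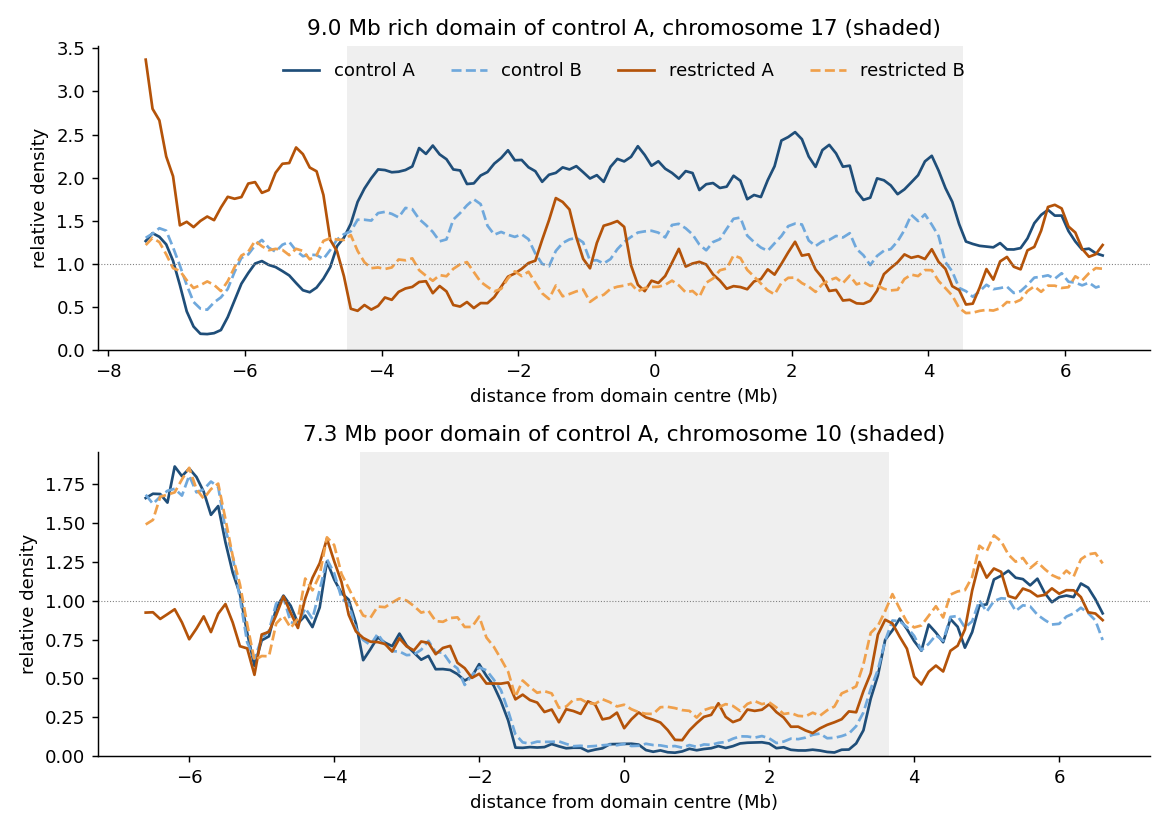
Relative density in 100 kb bins, as a running mean over 5 bins, across the 9 Mb rich domain of chromosome 17 (top) and the 7.3 Mb poor domain of chromosome 10 (bottom), with distance from the domain centre in Mb and the domain of control A shaded. On chromosome 17 both restricted lines are under both control lines apart from local peaks of restricted A, and in the centre of the chromosome 10 domain both lie above them.

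Bin by bin, the test with all 4 libraries called bins at 500 kb and wider, and 0 at smaller sizes. The test was limma on log2(relative density + 0.1) with Benjamini-Hochberg adjustment and a threshold of 0.05. It called 0 of 12120 bins of 100 kb (0% called), with a smallest adjusted p of 0.137 and 2526 bins at an unadjusted p under 0.05, of which 1642 were higher after restriction. At 10, 25, 50 and 250 kb it also called 0 bins, with 7888, 5261, 3761 and 1302 at an unadjusted p under 0.05. At 500 kb it called 203 of 2438 bins (8.33%), 158 higher (6.48%) and 45 lower (1.85%) after restriction. At 1 Mb it called 13.2% of 1227, at 2 Mb 36 of 619 (5.82%) and at 5 Mb 1 of 253 (0.395%). The median log2 difference was 1.46 for the higher and -0.88 for the lower 500 kb bins, against a median of 0.08 over all tested. The 500 kb calls numbered 0 with a pseudocount of 0.05 (774 at an unadjusted p under 0.05), with no scaling (19) and after quantile normalization (308), which forces 1 common distribution of densities on the 4 libraries. Leaving out 1 library gave 223 to 795 calls at 500 kb: 369 without control B, 795 without restricted A (440 higher, 355 lower) and 634 without restricted B (260 higher, 374 lower). At 100 kb it gave 830 calls without restricted A and 2906 without restricted B. In each case the lone library is assumed to vary like the pair. In simulated data with the spread of these bins, the test recovered none of the changes planted at 100 kb and, at 500 kb, most of the larger but few of the smaller ones, so 0 calls at 100 kb does not show that such bins were alike. All 158 higher bins came from the lowest tercile of control density and 41 of the 45 lower bins from the highest tercile, a description that shares the control values with the calls.

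The called 500 kb bins were not evenly spread. Chromosome 7 had 35 higher and 1 lower of 314 tested, and chromosome 2 had 38 higher and 6 lower of 481. Chromosome 17 had 4 higher and 16 lower of 158, and chromosome 16 had 20 higher and 10 lower of 160. The other 4 chromosomes had 10 to 20 higher and 1 to 6 lower. Neighbouring calls formed 80 higher runs, of which 38 held several bins and the longest 7, and 36 lower runs, of which 7 held several and the longest 3.

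The longest runs are given here by a rule for naming that was applied to 500 kb bins after their values had been seen. Among the higher runs, chr1:237500001-241000000 (3.5 Mb) had densities of 0.0591 in control A and 0.138 in control B, against 0.537 in restricted A and 0.515 in restricted B, a mean log2 difference of 1.67 (median SE 0.32, smallest adjusted p 0.0407 by limma). The 3.5 Mb run chr7:67500001-71000000 had 0.0935 and 0.189 in the controls and 0.893 and 0.574 in the restricted libraries, a mean log2 difference of 1.78. The 3 Mb run chr2:4000001-7000000 had 0.138, 0.204, 0.623 and 0.623, and the run chr10:36000001-38500000 had 0.181, 0.288, 0.694 and 0.685. The run chr16:59000001-61500000 had 0.0568, 0.106, 0.359 and 0.406. These 5 were near-deserts in the controls and had between 0.359 and 0.893 of the average in the restricted libraries, so none was at the average.

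The lower runs were shorter than the longest higher runs, and their log2 differences were smaller. The run chr17:17000001-18500000 had 1.46 and 1.51 in the controls, 0.766 in restricted A and 0.901 in restricted B, a mean log2 difference of -0.78 (median SE 0.16, smallest adjusted p 0.0407 by limma). At chr16:85500001-87000000 the densities were 1.90, 1.38, 0.516 and 0.802, and at chr16:84000001-85000000 they were 1.99, 1.31, 0.586 and 0.714, each with a mean log2 difference of -1.21. At chr10:71500001-72500000 they were 1.70, 1.48, 0.773 and 1.01, and at chr17:43000001-44000000 they were 2.07, 1.59, 0.948 and 0.852. All 5 were between 1.31 and 2.07 in the controls and between 0.516 and 1.01 in the restricted libraries. The runs were called from these same values, so the separation of the conditions in them follows from the choice.

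Single 100 kb bins did not pass the test with all 4 libraries. Of the 10 named bins, 7 passed it without restricted A, 10 without restricted B and 0 without either control. The bin with the largest difference upward, chr7:57000001-57100000, had a density of 0.00813 in control A and 0.0796 in control B, against 1.79 in restricted A and 0.701 in restricted B (log2 difference 3.14, SE 0.52, adjusted p = 0.137 by limma). The bin with the largest difference downward, chr6:37600001-37700000, had 1.41 and 1.94 in the controls, 0 in restricted A and 0.837 in restricted B (log2 difference -2.52, SE 0.88, adjusted p = 0.176 by limma). In each of the other 8 bins named by the same rule, restricted B lay between restricted A and the controls. Without restricted A the difference was 2.52 in the chr7 bin and -0.90 in the chr6 bin.

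Gene-dense windows and windows named for giant genes, both set by hand in whole Mb and not checked against an hg19 annotation, were read in each library. A window may thus reach past the gene or locus that it is named for. The giant genes are long, mostly tissue-restricted genes such as PCDH15 and CNTNAP2, which encode cell adhesion proteins, and RBFOX1, which encodes a splicing factor. In all 11 giant-gene windows, which span 1 or 2 Mb, both restricted libraries were denser than both controls. The same held for 41.2% of all 1 Mb bins. In the lowest tercile of control density it held for 88.8% of 1 Mb bins and 92.3% of 2 Mb bins. The count is therefore near that of poor sequence in general. Those terciles were set from the control values then compared, so their shares are not independent of the choice of bins. In the 2 Mb PCDH15 window (chr10:55000001-57000000) density was 0.0552 and 0.0755 in the controls, 0.268 in restricted A and 0.344 in restricted B. For the RBFOX1 window (chr16:6000001-8000000) it was 0.0581, 0.126, 0.431 and 0.344. In the CNTNAP2 window (chr7:146000001-148000000) it was 0.142, 0.205, 0.510 and 0.539. These 3 were the emptiest windows in the controls and differed most after restriction, with log2 differences of 2.23, 2.08 and 1.59. With regions of at least 4 reads these were 4.44, 4.93 and 3.57. In the ANKS1B window (chr12:99000001-100000000), which was near the average in the controls, density was 1.04, 0.978, 1.13 and 1.12, a log2 difference of 0.16, or 1.17 with regions of at least 4 reads. Without restricted B the log2 difference was 0.06 in the AGBL4 window, against 0.27, and 0.21 in the LRP1B window, against 0.48. The windows were not tested singly.

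The direction in restricted A depended on scaling in most of these windows. Without scaling, the covered share of the PCDH15 window was 0.686% and 1.14% in the controls, 1.53% in restricted A and 5.10% in restricted B, still without overlap, and RBFOX1 was alike with 0.722%, 1.90%, 2.46% and 5.09%. In the other 9 windows the unscaled shares of the conditions overlapped. Restricted B was above control B in 11 of 11 unscaled windows, whereas restricted A was above control A in 3 of 11. By rank among the 1 Mb bins of the same library, which disregards the width of the distribution, both restricted libraries were above both controls in 4 of 11 windows, PARK2, MAGI2, CTNNA3 and ANKS1B, below in 1, LRP1B, and overlapping in 6. The PCDH15 window, an average over 2 Mb, was ranked like the other windows among bins of 1 Mb. It lay above 3.18% and 0.570% of these bins in the controls, and above 1.14% and 2.28% in the restricted libraries. It was thus among the emptiest sequence of each library before and after restriction, at a density several times higher relative to the average.

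The 7 gene-dense windows depended on the scale used. Both restricted libraries were below both controls in 2 of 7, above in 0, and overlapping in 5. Of all 1 Mb bins, 23.6% were below both controls. In the highest tercile of control density, set from the control values then compared, 60.6% of 1 Mb bins and 64.1% of 2 Mb bins were below. The 7 windows themselves span 2 or 3 Mb. Without scaling 6 of 7 were below both controls, and by rank 1 of 7. Without restricted B the log2 difference was above 0 in 3 of them, at 0.21 for 12q13, 0.22 for 7q22 and 0.09 for 17q25 end, and without control A at 0.21 for 17q25 end. The window named for MHC class III (chr6:31000001-33000000) had densities of 1.56, 1.38, 1.31 and 1.27 in the order control A, control B, restricted A, restricted B. The 16p13.3 window (chr16:1-3000000) had 0.958, 0.914, 0.777 and 0.840. In the 10q24 window (chr10:103000001-105000000) density was 2.23 and 1.67 in the controls, 1.81 in restricted A and 1.13 in restricted B. For the 12q13 window (chr12:56000001-58000000) it was 1.61, 1.55, 1.83 and 1.23, with the restricted libraries on either side of the controls. The median gene-dense window was 2.98 and 2.79 times as dense as the median giant-gene window in the controls, 2.11 times in restricted A and 1.52 times in restricted B. That ratio, which needs no scaling, did not overlap between conditions.

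**Figure D5:**
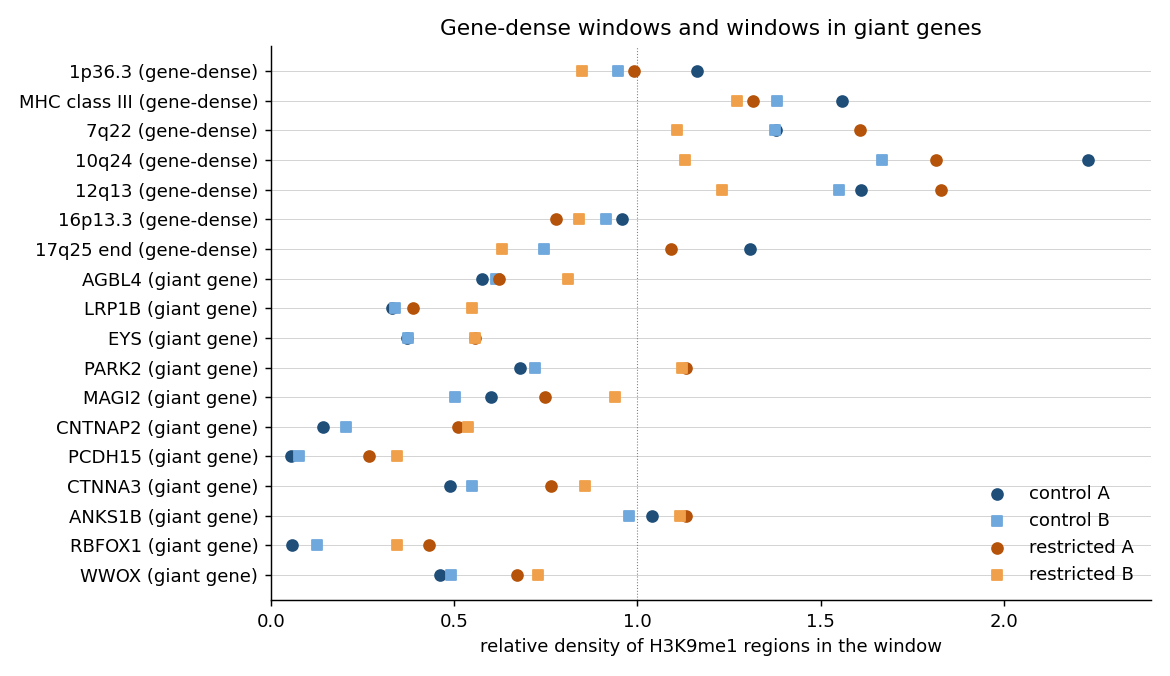
Relative density of H3K9me1 regions (x axis, 1 is the library average) in 7 gene-dense windows and 11 windows named for giant genes, with 1 point per library. Both restricted points lie to the right of both control points in each giant-gene window, and the points overlap between conditions in 5 of the 7 gene-dense windows.

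Whole chromosomes had a smaller range of density in the restricted libraries when chromosome 17 was included. Chromosome 17, rich in genes, was the densest in the controls at 1.44 and 1.31, and had 1.34 in restricted A and 0.985 in restricted B, so the conditions overlapped there. Chromosome 7, the least dense in the controls at 0.873 and 0.893, had 0.988 and 0.979 after restriction. Both restricted libraries were above both controls on chromosomes 6, 7 and 12, and below on chromosomes 1, 10 and 16. On chromosome 16 the values were 0.945 and 0.951 in the controls, 0.933 in restricted A and 0.838 in restricted B, a chromosome below average in the controls and further below it in the restricted libraries. The range over the 8 chromosomes was 0.568 and 0.412 in the controls and 0.408 and 0.202 in the restricted libraries (p = 0.33 by exact permutation test, the smallest possible), with restricted A close to control B. Apart from chromosome 17, densities ran from 0.873 to 1.08 in control A and from 0.893 to 1.06 in control B. They ran from 0.933 to 1.04 in restricted A and from 0.838 to 1.04 in restricted B. Restricted B thus had no smaller a range than control B without chromosome 17.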

How the data were processed

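Deposited lists of H3K9me1 regions from 4 libraries were used. Groups and letters came from the sample labels. Bowtie2 2.1.0, SAMtools 1.5, MACS2 2.1.1.20160309 and build hg19 are named in the submitters' processing notes. Per the file headers, MACS2 called broad regions in each library at p 0.0001 (strong) and 0.1 (weak), with at most 1 read per position, with the matching input (same time, same letter) as background. The caller scaled the larger dataset towards the smaller, so pileup is not comparable between libraries without its scale. The pileup deposited by the authors is a signal: the coverage by reads over a region. Per the file headers, positions and lengths are in base pairs.

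Chromosomes were taken to end at the last region of any of the 4 lists. The members, windows, domain rules and tests were chosen with earlier results of these data known. Spacing left out stretches of at least 500 kb without a region in any list. Densities were tested with limma 3.58.1 (lmFit, eBayes with trend and robust) in bins with a region in at least 2 libraries; single values with exact two-sided permutation tests over 6 relabellings, in SciPy 1.17.1. Simulated data at 100 and 500 kb served to check the bin test, which recovered none of the changes planted at 100 kb. P-values measure only the spread between these libraries. Named were the 5 longest runs of called bins per direction, or, with fewer than 5 called 100 kb bins, the 5 with the largest difference, a mean density of at least 0.5 and no overlap; the 3 longest rich and poor domains of control A; and every window. Read counts per region are unknown beyond the pileup, so no counting interval is given. No sequence or gene annotation of hg19 was used, so no region is placed in a gene, exon or intron.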

Additional observations from a re-analysis of the deposited data

How the results depend on the processing

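Differences between conditions in spread of density, width, spacing and number of poor domains kept their direction under every alternative run, and 1 count reversed: without the running mean, the mean number of rich domains differed by -8.5 (restricted minus control), against 80. Leaving out 1 library gave differences of -55 to -2 bp in median width and -247 to -35.5 bp in its 90th percentile. The boundary contrast (restricted minus control, -0.169) was -0.546 with equal numbers of regions by highest pileup, -1.12 with regions of at least 4 reads, -0.101 at edges of restricted B and -0.0439 at edges of restricted A; without a control it could not be computed, and without 1 restricted library it was -0.184 to -0.154. The 4-read rule, the other edges, and the alternatives for called bins at 500 kb and for windows were chosen after the data were seen. The 4-read rule left out regions at the lowest pileup of restricted A, where it was thus stricter than elsewhere. At 100 kb, 0 bins were called, and leaving out 1 library gave 0 to 2906. At 500 kb, 203 were called: 0 with a pseudocount of 0.05, with no scaling or after quantile normalization, 665 with equal numbers of regions by highest pileup, 353 with regions of at least 4 reads, and 223 to 795 without 1 library. The causes were not tested. The median log2 difference over all 500 kb bins, 0.08, was -0.49 with no scaling, 0.35 with equal numbers and 0.71 with the 4-read rule. With the letter as a replicate block the counts were 491 at 100 kb and 561 at 500 kb, among them all 203, and 5 of the 10 named 100 kb bins passed. The labels do not pair the letters, and same-letter deviations had a correlation of -0.0998 over 100 kb bins. Of 140 repeats of the 10 named runs, 33 missed the threshold and 0 reversed. A repeat met the threshold if any bin of the run did. The runs were named for calls in these same libraries, so the repeats are no independent check of them. Of the repeats of the 18 windows, 38 moved by more than the spread between libraries and 88 by less.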

Other observations

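The longest gaps between regions in one library often held regions in the others. In control A the longest was chr1:106074120-106373347 (299 kb), which held 16 regions in control B, against 16 in restricted A and 42 in restricted B. Another long gap of control A, chr6:92850736-93121496 (271 kb), held 16, 10 and 33 in the same order. By contrast, the longest gap of restricted B, chr2:89619832-89831644 (212 kb), held 1 region in control A, 2 in control B and 1 in restricted A.

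Of the 10 stretches of at least 500 kb with no region in any of the 4 lists, 1 lay inside the RBFOX1 window, chr16:6273374-6935811 (0.662 Mb). The densities of that window are over its whole length in all 4 libraries. The cause of this empty stretch was not tested.

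Regions with a pileup at least 5 times the median of their list numbered 86 in control A and 77 in control B, against 64 in restricted A and 166 in restricted B. Of these, 70, 55, 38 and 104 lay within 5 Mb of a stretch without regions in any list, or 81.4%, 71.4%, 59.4% and 62.7%, against 6.43%, 6.61%, 7.23% and 6.77% of all regions. The highest pileup of each library, 138, 93.8, 66.3 and 129, lay on chromosome 10. The places of these top regions ran from chr10:42384995-42385634 in restricted B to chr10:42596928-42597136 in control A.

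The widest region of a library was covered to differing degrees elsewhere. The 6299 bp region of control A, chr16:87693489-87699787, was covered to 8.97% in control B, against 12.4% in restricted A and 23.3% in restricted B. The 5648 bp region of restricted A, chr1:148846812-148852459, was covered to 2.02% in control A, 0% in control B and 48.9% in restricted B. The 5876 bp region of restricted B, chr10:115334486-115340361, was covered to 63.3% in control A, 55.4% in control B and 6.11% in restricted A.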
